A study of Mus musculus with 9 samples.

Results

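The nuclear tRNAs for glutamate, tRNA-Glu-CTC and tRNA-Glu-TTC, were followed as small RNA fragments in the atrial appendages of C57BL/6 mice. They were chosen by their fitted levels in these same libraries, low in curcumin-treated against untreated old mice, so that comparison is given below as values with no test. All entries named tRNA-Glu among the nuclear mature tRNAs were taken, and the mitochondrial ones were left out. Each anticodon gave 4 fragments: the 5′ end, the 3′ end without CCA, the CCA end, and the reads of the species that fall in none of these, here called the other part. They make up 8 of 200 nuclear tRNA fragments and 8 of the 996 features in the files, and all 8 passed the filter on low counts. The 3 groups of 3 libraries were curcumin-treated mice of 18 months, which took 100 mg/kg curcumin daily in skim milk between 12 and 18 months of age, untreated old mice of 18 months, and untreated young mice of 5 months. The study set aging against aging with curcumin. Whether the untreated mice also took the milk, and whether a library is 1 mouse or a pool, is not given in the sources used here, so that p-values measure the spread between libraries.

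A tRNA for glutamate brings that amino acid to the ribosome. The CTC anticodon pairs with the codon GAG, and the TTC anticodon, whose first base is a thiolated uridine in the cell, reads mainly GAA. Nucleases such as angiogenin cut mature tRNAs in the anticodon loop, which leaves a 5′ and a 3′ piece, and further cuts give shorter fragments. The CCA tail is not encoded in the genome: an enzyme adds it after transcription, and the amino acid is attached to it. Fragments from the 5′ side of tRNA-Glu and tRNA-Gly are known as abundant small RNAs of mouse sperm and serum. In PANDORA-seq, AlkB strips methyl marks that block reverse transcription and T4 polynucleotide kinase repairs the ends of fragments, so that more tRNA fragments enter the library than with standard small RNA sequencing.

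The RefSeq gene table of the GRCm38 assembly (mm10) lists 12 genes for tRNA-Glu-CTC and 8 for tRNA-Glu-TTC, each 72 bases long, on 10 chromosomes. A group of 4 CTC genes lies on chromosome 1 between bases 171064164 and 171103114, and the first of them, at 171064164 to 171064235, is in an intron of Fcgr3, an Fc receptor of leukocytes. The other intronic CTC genes are at chromosome 7, 99543900 to 99543971, in Arrb1 (beta-arrestin, which desensitises receptors), and at chromosome 17, 56092001 to 56092072, in Hdgfl2. Intronic TTC genes lie in Btn1a1 (chromosome 13, 23463535 to 23463606), in Elf1, a transcription factor (chromosome 14, 79481668 to 79481739), and in the long noncoding RNAs Platr30 (chromosome 3, 96346675 to 96346746) and Gm17575 (chromosome 3, 96387405 to 96387476). The remaining 9 CTC and 4 TTC genes lie between annotated genes. The files count by anticodon, so no read can be assigned to 1 of these loci.

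Libraries held between 12899427 and 19707803 clean reads, of which 65.0% to 73.7% matched the genome. The 7 striated muscle miRNA precursors checked summed to between 5179 and 17618 CPM, the usual read count adjusted for library size, here over the reads in features and scaled by TMM, and endothelial miR-126a lay between 4178 and 10451 CPM. Liver miR-122 stayed between 0.965 and 4.55 CPM. Across the 3 groups, the libraries numbered 1 stood apart in the tRNA ends: 46 of 49 tested nuclear CCA ends were lower in the library numbered 1 than in the mean of the other two in every group, with a median log2 difference of -1.33. Both tRNA-Glu CCA ends were among those values in all 3 groups, at -1.22 for CTC and -0.92 for TTC on average. Of clean reads, 72.2% to 73.7% matched the genome in the libraries numbered 1, against 65.0% to 68.3% in the others. The labels do not say what the numbers mean, and results that rest on these libraries are given with and without them.

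tRNA-Glu was among the best covered tRNA species. tRNA-Glu-CTC ranked 3 of 51 nuclear species by reads, after tRNA-Gly-GCC and tRNA-Gly-CCC, with 1.69% of nuclear tRNA reads. tRNA-Glu-TTC ranked 8, with 0.700%. Together they had between 42323 and 88173 reads per library, and these made up 0.391%, 0.309% and 0.296% of clean reads in curcumin-treated mice, 0.347%, 0.508% and 0.356% in untreated old mice, and 0.234%, 0.466% and 0.412% in young mice. The highest share belonged to an old library and the lowest to a young one, and the 3 groups overlapped. The 95% Wilson interval of each share reached at most 0.0035 percentage points to either side, so counting error is far below the spread between libraries. It holds no other error, as several reads can come from 1 molecule. In a tissue sample, fewer cells of a type and less of an RNA per cell cannot be told apart.

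The anticodons differed in which part of the tRNA was recovered. Of tRNA-Glu-TTC reads, between 43.2% and 57.7% were 5′ ends, with a median of 51.2% over the 9 libraries. Of tRNA-Glu-CTC reads, 5′ ends were between 4.14% and 7.31%, with a median of 6.39%. The ranges lie far apart, although CTC was the more abundant species in every library, with 62.4% to 77.8% of all tRNA-Glu reads. In reads, the TTC 5′ end exceeded the CTC 5′ end in 9 of 9 libraries, by 2.46 to 5.07 times with a median of 4.13. The other part ran the opposite way, with CTC above TTC in 9 of 9 libraries by 4.18 to 7.11 times. It held 79.6% to 88.6% of CTC reads and 32.4% to 42.4% of TTC reads. Thus a 5′ end was the leading named fragment of TTC, while most CTC reads fell outside the named ends.

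**Figure D1:**
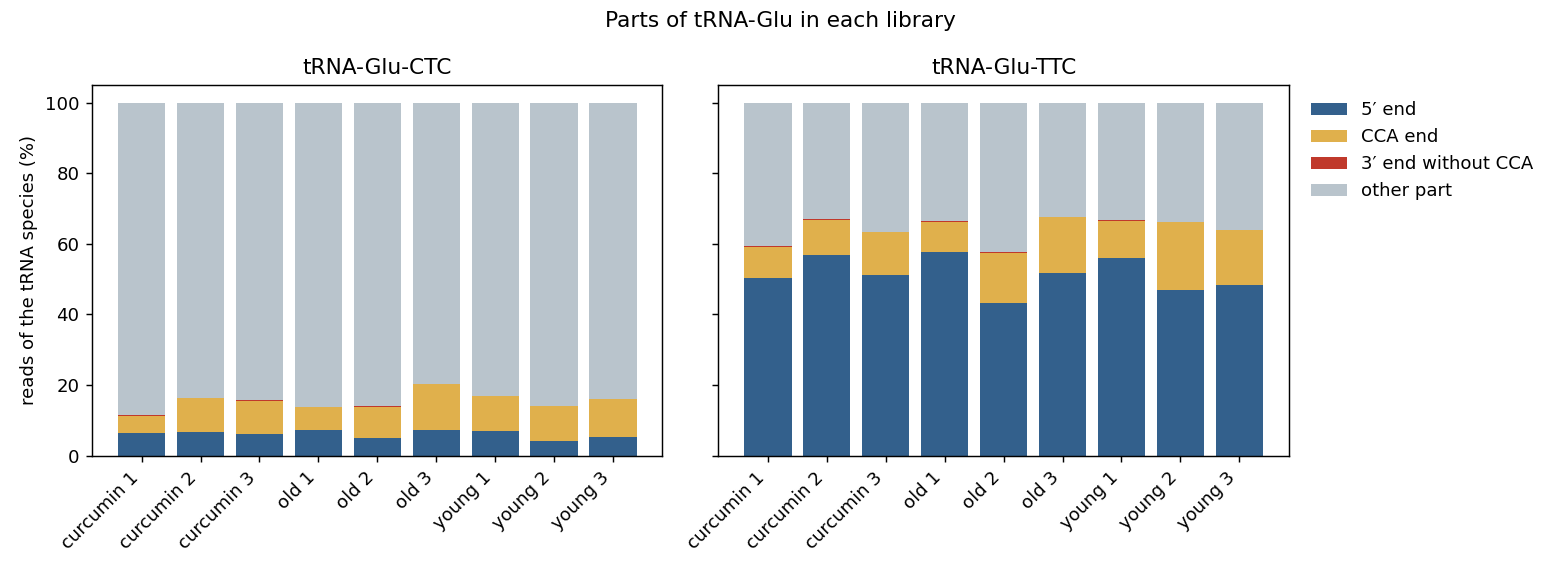
Share of the reads of tRNA-Glu-CTC (left) and tRNA-Glu-TTC (right) in each part, in percent of the species' reads, for each of the 9 libraries (curcumin-treated, untreated old, young). The 5′ end (blue) holds 43.2% to 57.7% of TTC reads and 4.14% to 7.31% of CTC reads.

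The CCA ends, which come from mature tRNA, held 4.76% to 13.0% of CTC reads and 8.39% to 19.1% of TTC reads. They exceeded the 5′ ends in 7 of 9 libraries for CTC and in 0 of 9 for TTC. The 3′ ends without CCA were rare, with 18.9 to 139 reads of CTC and 12.6 to 74.7 reads of TTC per library. No read of a 5′ or 3′ end was listed as not matching the genome. Of the CCA ends, 76.3% to 91.6% of CTC reads and 54.4% to 78.9% of TTC reads were listed so, the tail being absent from the genome. In the other part this share was 1.28% to 3.80% for CTC and 6.09% to 13.0% for TTC. No entry for a precursor of tRNA-Glu was listed.

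Single values of the anticodons carry a limit from the way reads were divided. Of 108 values of 1 anticodon, 104 were not whole numbers, but CTC and TTC summed to whole reads, within 0.015, in 45 of 54 sums, including all sums of 5′, 3′ and CCA ends. Reads that match both anticodons were therefore split between them in these ends. The 9 sums that were not whole were those of all genome-matched reads, so the other part also shares reads with entries other than tRNA-Glu. Which ones is not resolved by the files.

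Among the 36 nuclear species with at least 100 CPM on average, tRNA-Glu-TTC ranked 11 by its share of 5′ ends and tRNA-Glu-CTC ranked 28, around a median of 13.3%. By the share of the other part, CTC ranked 5 and TTC ranked 25, around a median of 42.6%. tRNA-Ala-AGC had the highest share of 5′ ends, 94.7%. The anticodons of glutamate thus lay on either side of the median species in both shares.

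**Figure D2:**
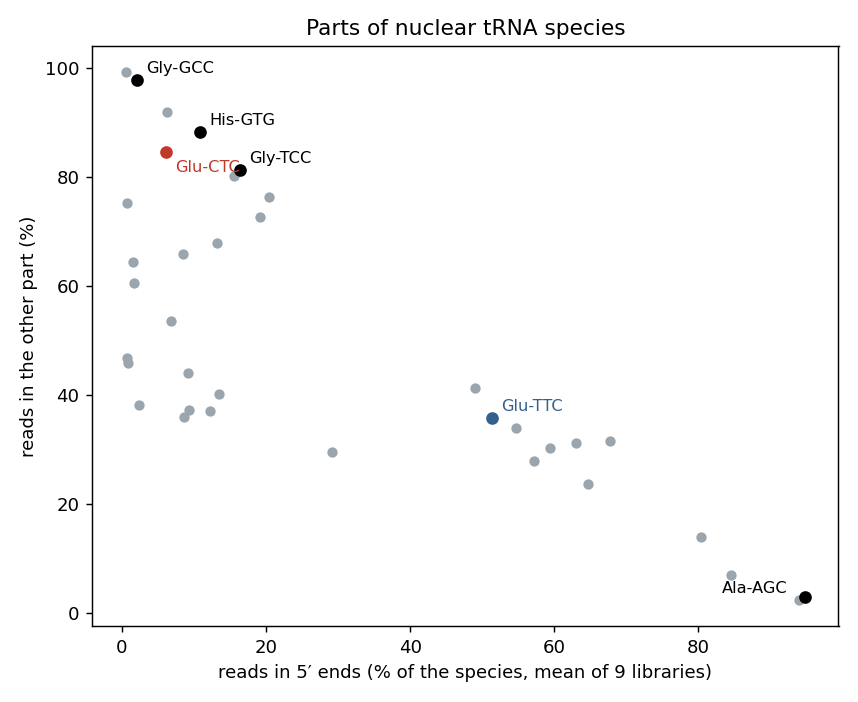
Share of 5′ ends (x axis, %) against share of the other part (y axis, %) for 36 nuclear tRNA species with at least 100 CPM, each a mean of 9 libraries. tRNA-Glu-CTC (red) is at 6.14% and 84.6%, tRNA-Glu-TTC (blue) at 51.4% and 35.8%.

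Summed over both anticodons, tRNA-Glu had 3494 ± 529 CPM in curcumin-treated mice, 5083 ± 1656 CPM in untreated old mice and 4776 ± 2310 CPM in young mice (SD, n = 3 each). With all 9 libraries, the order of the means was untreated old, young, curcumin-treated, and neither pair of neighbours in it differed beyond its spread. The young libraries were at 2221, 6718 and 5389 CPM, with replicate 1 the lowest. Old libraries were at 3980, 6987 and 4281 CPM, and curcumin libraries, the least spread, at 4050, 2996 and 3435 CPM. tRNA-Glu-CTC gave most of the range, with 2322 ± 468 CPM in curcumin-treated, 3658 ± 1561 in untreated old and 3466 ± 1796 in young mice. tRNA-Glu-TTC had 1172 ± 65.8 CPM in curcumin-treated, 1425 ± 156 in untreated old and 1310 ± 519 in young mice.

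**Figure D3:**
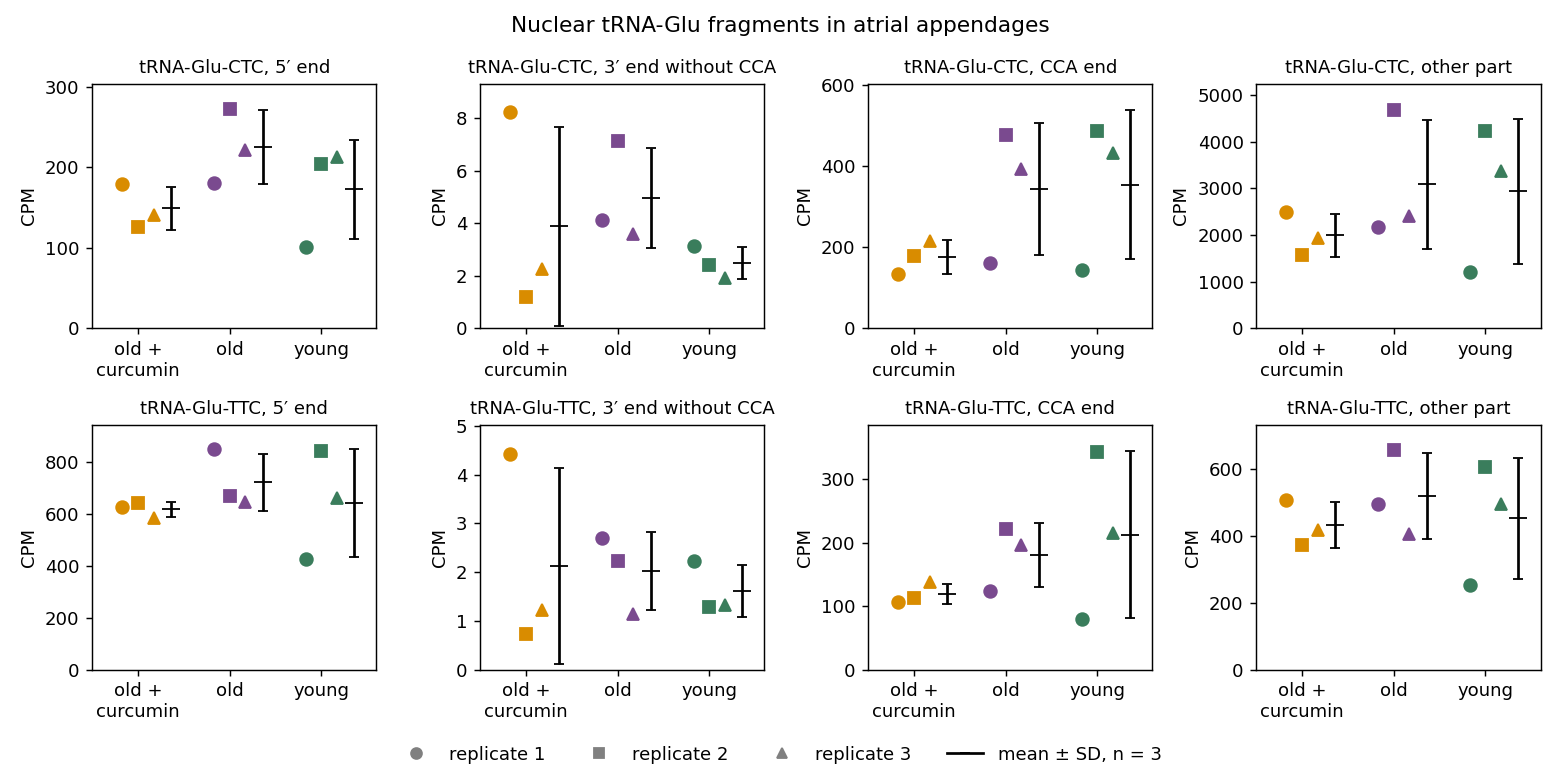
CPM of the 8 tRNA-Glu fragments in each library (y axis, linear from 0; shape marks the replicate number) with the mean ± SD of 3 libraries for curcumin-treated, untreated old and young mice. The other part of tRNA-Glu-CTC is the most abundant, 1211 to 4679 CPM, and the 3′ ends stay under 10 CPM.

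By the SD of log2 CPM within groups, the 5′ ends were the steadiest fragments, at 0.32 for TTC and 0.41 for CTC. The TTC other part was next, at 0.45. By the highest over the lowest library, the TTC 5′ end was the steadiest, at 2.00, followed by the TTC other part at 2.59 and the CTC 5′ end at 2.69. The 5′ end of tRNA-Glu-TTC had 629, 641 and 584 CPM in curcumin-treated mice, 850.0, 671 and 648 CPM in untreated old mice and 426, 843 and 663 CPM in young mice. The curcumin libraries all lay below the old ones and inside the range of the young ones. The 5′ end of tRNA-Glu-CTC had 179, 126 and 141 CPM in curcumin-treated mice, 181, 273 and 221 CPM in untreated old mice and 101, 204 and 213 CPM in young mice. Here too the highest curcumin library lay below the lowest old library. The fragments were chosen on this comparison, in which 6.73% of 520 features were lower without overlap. Young replicate 1 was the lowest of all 9 libraries for both 5′ ends.

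The CCA end of tRNA-Glu-CTC had 133, 179.8 and 216 CPM in curcumin-treated mice, 162, 476 and 393 CPM in untreated old mice and 144, 488 and 433 CPM in young mice. The low values in old and young mice are those of the libraries numbered 1. The CCA end of tRNA-Glu-TTC had 107, 112 and 137 CPM in curcumin-treated, 124, 221 and 196 CPM in untreated old and 79.1, 342 and 215 CPM in young mice. It showed the same arrangement, with replicate 1 lowest in each group. The other part of tRNA-Glu-CTC had 2482, 1561 and 1935 CPM in curcumin-treated mice, 2161, 4679 and 2412 CPM in untreated old mice and 1211, 4231 and 3367 CPM in young mice. Its replicate 1 was the highest of the curcumin group and the lowest of the old and young groups. The other part of tRNA-Glu-TTC ranged between 254 CPM in a young library and 658 CPM in an old one. The 3′ ends were at 8.21, 1.18 and 2.27 CPM in curcumin-treated, 4.13, 7.13 and 3.59 in untreated old and 3.14, 2.40 and 1.93 in young mice for CTC, and at 0.729 to 4.43 CPM over all libraries for TTC.

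In curcumin-treated against untreated old mice, where the fragments were noticed, 7 of 8 had a lower fitted level in curcumin-treated mice, with a median log2 change of -0.47. Over all 520 features tested 226 were lower, with a median of 0.08, and over 185 nuclear tRNA fragments 94 were lower, with a median of -0.0039. tRNA-Glu-CTC had the larger differences: -0.96 (SE 0.50) for its CCA end, -0.63 (SE 0.46) for its other part, -0.60 (SE 0.34) for its 5′ end and -0.34 (SE 0.66) for its 3′ end. For tRNA-Glu-TTC they were -0.60 (SE 0.47) for the CCA end, -0.26 (SE 0.34) for the other part, -0.23 (SE 0.27) for the 5′ end and 0.08 (SE 0.67) for the 3′ end. The groups did not overlap for 2 of the 8, the 5′ ends, both lower in curcumin-treated mice, where 6.73% of all features were lower without overlap. No feature passed in this comparison (0% of 520). Without the libraries numbered 1, the CTC values were -1.65 (SE 0.52) for the 3′ end, -1.13 (SE 0.26) for the CCA end, -1.02 (SE 0.27) for the other part and -0.88 (SE 0.27) for the 5′ end. The TTC values were -0.80 (SE 0.61) for the 3′ end, -0.74 (SE 0.28) for the CCA end, -0.42 (SE 0.27) for the other part and -0.10 (SE 0.25) for the 5′ end, which was thus closer to 0 than with all libraries. In that fit, with 2 libraries per group, 73 of 519 features passed (14.1%), 34 higher and 39 lower. Between the libraries numbered 1 alone, 4 of 8 fragments were lower in the curcumin library and 4 were higher. When library sizes were the clean reads in place of TMM, the median feature moved up by 0.24 and the median of the 8 was -0.21, with 6 of 8 negative, the TTC 5′ and 3′ ends being positive. The summed striated muscle miRNAs were 11903 to 17618 CPM in curcumin libraries, against 5179 to 13719 CPM in old libraries. The 3 leukocyte miRNAs, all detected in all 9 libraries, summed to 103 to 123 CPM in curcumin libraries, against 53.6 to 97.3 CPM in old libraries, without overlap. The 2 smooth muscle miRNAs summed to 604 to 750.2 CPM in curcumin libraries, against 239 to 634 CPM in old libraries. The 4 red blood cell miRNAs summed to 25.4 to 58.1 CPM in curcumin libraries, against 44.0 to 58.5 CPM in old libraries. The part of these cell types in the result was not tested.

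**Figure D4:**
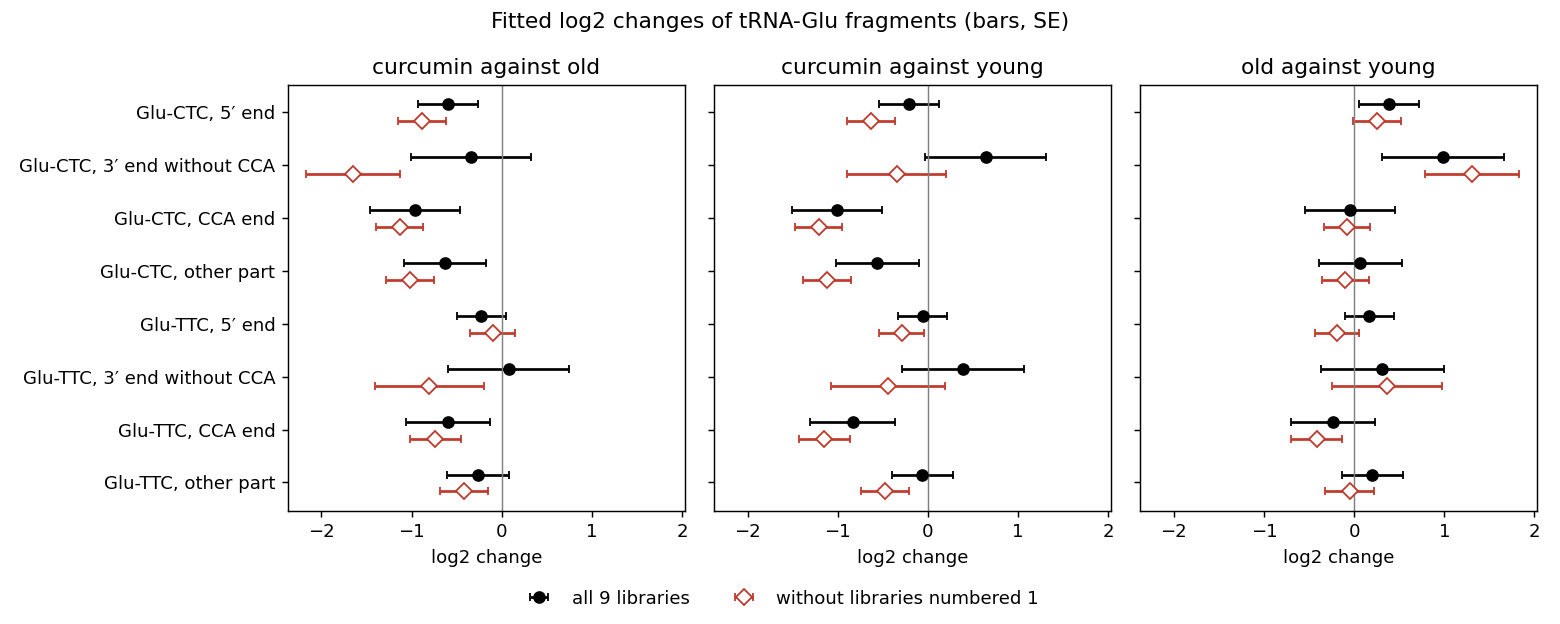
Fitted log2 changes (x axis) of the 8 tRNA-Glu fragments in 3 comparisons from edgeR, with all 9 libraries (black) and without those numbered 1 (red); bars are SE. Against old mice 7 of 8 black points are negative, and against young mice 6 of 8, with TMM scaling; with clean reads as library sizes these counts are 6 and 3.

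Against young mice, which share the curcumin libraries with the comparison above and so give no independent check of it, 0 of 8 fragments passed in edgeR's quasi-likelihood test, as did 0% of 520 features. The fitted changes in curcumin-treated against young mice were largest for the CCA ends, at -1.01 (SE 0.50) for CTC and -0.83 (SE 0.47) for TTC, followed by -0.56 (SE 0.46) for the other part of CTC. The remaining changes were -0.21 for the CTC 5′ end, -0.06 for both the TTC 5′ end and the TTC other part, 0.64 for the CTC 3′ end and 0.39 for the TTC 3′ end. With clean reads as library sizes the median feature moved up by 0.19, and 5 of 8 fragments were positive, in place of 2 of 8. edgeR's adjusted p lay between 0.942 and 0.984. At an unadjusted p under 0.05, 0 of 8 fragments and 19 of 520 features were counted. DESeq2 and limma-voom called 0 of 8.

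The calls in this comparison changed with the libraries numbered 1. Between the curcumin and young libraries numbered 1, 7 of 8 fragments were higher in the curcumin library, by up to 1.39 on the log2 scale. Without the libraries numbered 1, which leaves 2 per group, 3 of 8 fragments fell in curcumin-treated mice by edgeR. Their log2 changes were -1.21 for the CTC CCA end (SE 0.26, edgeR adjusted p = 0.00232), -1.15 for the TTC CCA end (SE 0.28, adjusted p = 0.00738) and -1.11 for the CTC other part (SE 0.27, adjusted p = 0.00633). In that fit 5.78% of 519 features fell. The curcumin libraries kept are among those in which the fragments were chosen as low, so these p-values are not independent of that choice. The TTC other part and the 5′ ends did not pass, with log2 changes of -0.47, -0.63 for CTC and -0.29 for TTC. Still without these libraries, the same 3 fragments passed when nuclear tRNA fragments were fitted alone, at -0.82, -0.74 and -0.71 in that order. There 4.84% of 186 fragments fell. With all 9 libraries, the fit of nuclear tRNA fragments alone called 0 of 8. With clean reads as library sizes and without the libraries numbered 1, 0 of 8 passed. The CTC CCA end was then at -0.85 (edgeR adjusted p = 0.0567), where 0.771% of 519 features fell. The calls therefore depend on both the libraries and the scaling.

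In untreated old against young mice, which share the old libraries with the comparison used to choose the fragments, 0 of 8 fragments passed, as did 0% of 520 features. The tests counted 0 of 8 fragments and 5 of 520 features at an unadjusted p under 0.05, and DESeq2 and limma-voom also called 0 of 8. The log2 changes were 0.38 (SE 0.33) and 0.17 (SE 0.27) for the 5′ ends of CTC and TTC, 0.07 (SE 0.46) and 0.20 (SE 0.34) for their other parts, and -0.04 (SE 0.50) and -0.24 (SE 0.47) for their CCA ends. Each adjusted p was 0.999 in edgeR's test. The CTC 3′ end was at 0.98 (SE 0.68), and its old libraries lay above all young ones, as did those of 2.31% of features. It rests on 18.9 to 90.2 reads per library in these groups. Between the libraries numbered 1, all 8 fragments were higher in the old library. Without them, 3 of 8 were positive and none passed.

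With all 9 libraries, the groups overlapped in the tRNA-Glu share of clean reads and in the CTC share of tRNA-Glu reads. The share of clean reads was 0.332% ± 0.0516 in curcumin-treated, 0.404% ± 0.0907 in untreated old and 0.370% ± 0.121 in young mice (SD, n = 3 each). Exact two-sided permutation tests gave p = 0.7 for curcumin-treated against young and p = 0.8 for untreated old against young mice. With 3 libraries against 3 no p can be under 0.1. The CTC share of tRNA-Glu reads was 66.1% ± 3.47 in curcumin-treated, 70.5% ± 7.39 in untreated old and 71.2% ± 4.75 in young mice. Curcumin-treated against young mice gave p = 0.3 by the exact permutation test. Without the libraries numbered 1, curcumin libraries were lowest without overlap in both shares. Of clean reads they had 0.309% and 0.296%, against 0.508% and 0.356% in old and 0.466% and 0.412% in young libraries. The CTC share was 62.4% and 66.8%, against 77.8% and 70.8% in old and 73.3% and 74.5% in young libraries. With 2 libraries per group, and tRNA-Glu chosen as low in these curcumin libraries, this is a description. The part of CTC reads that were CCA ends was 7.93% in curcumin-treated and 10.2% in young mice, without overlap, at the smallest possible p of 0.1 by the exact permutation test. That difference of -2.25 percentage points was -0.67 without curcumin replicate 1, -0.82 without all libraries numbered 1, and 0.28 with genome-matched reads only. Over the 30 share tests every adjusted p was 1. As no p can be under 0.1, none of these tests could pass at 0.05, whatever the shares.

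Glutamate tRNA was also set beside lists of related tRNAs. tRNAs with a thiolated wobble uridine (Glu-TTC, Lys-TTT and Gln-TTG) gave 12 tested fragments, of which 0 passed in any comparison. Their median log2 changes were 0.17 in curcumin-treated against untreated old, 0.14 in curcumin-treated against young and 0.05 in untreated old against young mice, with 4, 4 and 6 of 12 negative. tRNAs known as sources of 5′ fragments, with Glu-CTC among them, gave 32 tested fragments with medians of -0.08, 0.13 and 0.11 in the same order, and again 0 passed. Of the 49 tested nuclear CCA ends, 40 were negative in curcumin-treated against untreated old mice and 40 against young mice, with medians of -0.38 and -0.35. The negative sign of the tRNA-Glu CCA ends was thus shared by most CCA ends. Of the 48 tested nuclear 5′ ends, 19 were negative in curcumin-treated against untreated old mice, with a median of 0.11 over all 48. Without overlap, 6 of them were lower, both of glutamate included, and 8 were higher. Over all 520 features, 35 were lower and 32 higher without overlap. Since tRNA-Glu was chosen on that comparison, its 5′ ends are not set apart from the others by these values.

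Of 34 other nuclear species, tRNA-Gly-TCC had the pattern over the 9 libraries most like that of summed tRNA-Glu, with a root mean square log2 difference of 0.20 after each was centred on its mean. tRNA-Leu-AAG followed at 0.22, then tRNA-Ala-AGC at 0.23, tRNA-Ala-CGC at 0.25 and tRNA-Ala-TGC at 0.27. The value for tRNA-Glu against no change at all was 0.51. The species share libraries and depth, and reads divided among tRNAs may be common to them. In the mean, tRNA-Gly-TCC had 1045 CPM in curcumin-treated, 1323 CPM in untreated old and 1352 CPM in young mice, and tRNA-Leu-AAG had 125, 182 and 162 CPM in the same groups. Without the libraries numbered 1, tRNA-Gly-TCC and tRNA-Leu-AAG stayed first and second, at 0.061 and 0.084, and the alanine tRNAs moved to ranks 6, 11 and 13. tRNA-His-GTG moved from rank 23 to rank 3, at 0.10, followed by tRNA-Arg-CCT and tRNA-Thr-TGT, each at 0.14. In that setting the value for tRNA-Glu against no change at all was 0.46.

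**Figure D5:**
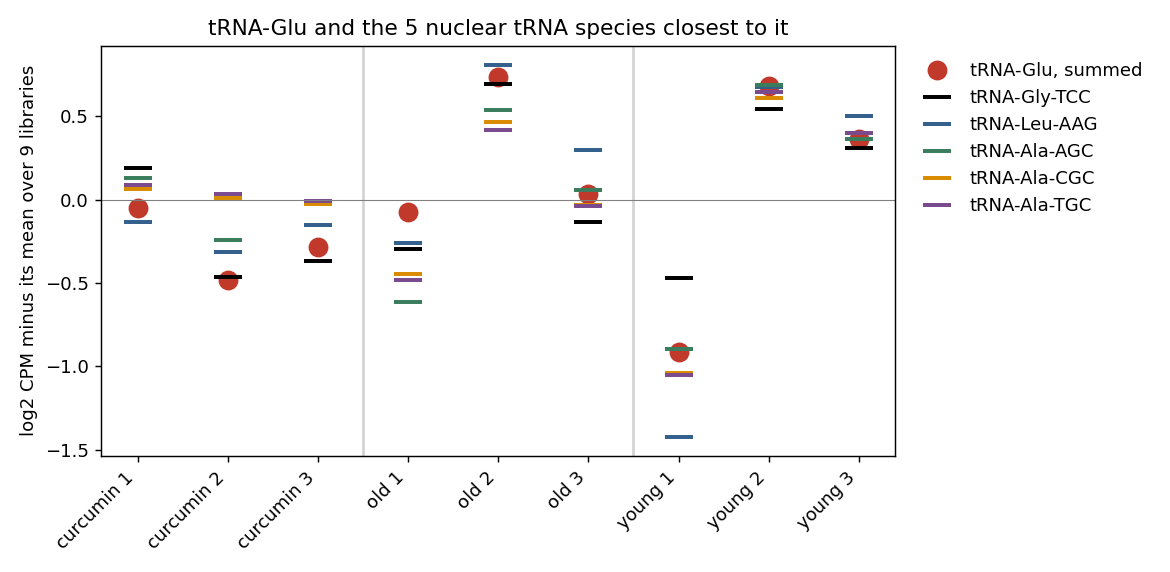
log2 CPM minus its mean over 9 libraries (y axis) of summed tRNA-Glu (red circles) and of the 5 closest nuclear tRNA species (bars), by library. tRNA-Glu is lowest in young replicate 1, at 2221 CPM, and highest in old replicate 2, at 6987 CPM.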

How the data were processed

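Per the labels' protocols, total RNA went through AlkB and kinase treatment, RNA of 15 to 45 nucleotides was cut from a gel, and a QIAGEN miRNA kit supplied the adapters. Per the submitters' processing notes, cutadapt 2.5 and mm10 were used. Neither the annotation tool nor how it defines the ends is given in the sources used here. Deposited values are expected counts per annotation, not normalized, in which the authors divided reads matching several entries. Genome-matched and unmatched reads were summed, the other part was the whole species minus its ends, and expected counts were rounded. The members and lists were chosen with earlier results of these data known. The rule for naming took all tRNA-Glu fragments and the 5 species closest to their sum.

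A feature was a miRNA precursor, a part of a tRNA species, or another RNA. filterByExpr kept 520 of 996. All 9 libraries were fitted together with edgeR 4.0.16 (R 4.3.3) by robust quasi-likelihood, with TMM scaling and the group as sole term. Its SE is the log2 change over the square root of F. Adjusted p (Benjamini-Hochberg, over all 520) under 0.05 counted as passed. The labels do not say that replicate numbers pair libraries. Correlations of the deviations of same-numbered libraries were 0.31 to 0.81 between untreated old and young and 0.19 to 0.35 between curcumin-treated and young mice. Between curcumin-treated and untreated old mice they were -0.097 to 0.41. Libraries of unlike number were not set against each other, so this check cannot show whether the numbers pair the libraries. The tests reported took the libraries as unpaired. Scripts were tested on simulated data. Alternatives used other scalings, filters, tools (DESeq2 1.42.0, limma 3.58.1) and libraries. Fits that combine scaling with leaving out the libraries numbered 1 were chosen after seeing the data. Positions came from RefSeq and host genes from GENCODE, both on mm10.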

Additional observations from a re-analysis of the deposited data

How the results depend on the processing

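Leaving out the libraries numbered 1 moved the calls most: in curcumin-treated against young mice the count of features passed was 67 in place of 0 and that of tRNA-Glu fragments 3 in place of 0, and in curcumin-treated against untreated old mice 73 features passed. Chosen after seeing the data, the same with clean-read totals gave 30 and 32 features and 0 tRNA-Glu fragments, and with nuclear tRNA fragments alone 30 and 20 features and 3 tRNA-Glu fragments. DESeq2 called 1 feature in curcumin-treated against young mice and 0 tRNA-Glu fragments. The replicate block called 0 features in each comparison and changed no call, and it turned the TTC other part in curcumin-treated against young mice to 0.0005. Of tested log2 values, 172 of 204 kept their sign and side of the threshold and 26 turned round. Fits leaving out 1 library at a time, in which further values turned round, are not counted there. In curcumin-treated against untreated old mice, the CTC 5′ end, both CCA ends and both other parts stayed negative in 23 of 23 settings. These settings include the main fit and the fits without 1 library. The TTC 5′ end did so in 20 of 23, the CTC 3′ end in 20 of 22 and the TTC 3′ end in 8 of 22. The fragments were chosen as low in this comparison and the settings refit its libraries, so these signs are no independent support. The cause of the turns was not tested.

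In curcumin-treated against young mice, clean-read totals gave 0.0531 for the CTC 5′ end, 0.20 for the TTC 5′ end and 0.21 for the TTC other part. limma-voom gave 0.0138, -0.0092 and 0.0513 for the TTC 5′ end, 3′ end and other part, and only those groups fitted gave 0.0105 and 0.0031 for the TTC 5′ end and other part. Without the libraries numbered 1 the CTC and TTC 3′ ends were at -0.35 and -0.44. With clean-read totals besides, the TTC 5′ and 3′ ends were at 0.096 and -0.082, and with nuclear tRNA fragments alone at 0.11 and -0.053. In untreated old against young mice, limma-voom gave 0.0617 and 0.0459 for the CTC and TTC CCA ends. Without the libraries numbered 1, the CTC other part, TTC 5′ end and TTC other part were at -0.097, -0.19 and -0.051, with nuclear tRNA fragments alone at -0.13, -0.15 and -0.067. With clean-read totals and again without the libraries numbered 1, the CTC CCA end, CTC other part and TTC 5′ end were at 0.01, -0.026 and -0.087.

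Of the shares, in percentage points, without the libraries numbered 1 untreated old against young mice gave -0.0067 for clean reads, 0.40 for CTC of tRNA-Glu, 0.53 for CCA ends of CTC, -0.073 for 5′ ends of TTC and 0.033 for 3′ ends of TTC. Curcumin-treated against young mice gave -0.96 and -0.096 for the other parts of CTC and TTC. Genome-matched reads only gave 0.016 for CCA ends of CTC in untreated old against young mice, and 0.28 and -1.30 for CCA ends and other part of CTC in curcumin-treated against young mice.

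Leaving out 1 library at a time, untreated old against young mice gave -0.35 to 0.43 for the CTC other part, -0.47 to 0.27 for the CTC CCA end, -0.092 to 0.44, -0.67 to 0.31 and -0.13 to 0.48 for the TTC 5′ end, CCA end and other part. Curcumin-treated against young mice gave -0.54 to 0.019 and -0.52 to 0.99 for the CTC 5′ and 3′ ends, and -0.34 to 0.27, -0.72 to 0.73 and -0.41 to 0.29 for the TTC 5′ end, 3′ end and other part. Shares ranged, in untreated old against young mice, over -0.035 to 0.081 for clean reads, -4.27 to 3.12 for CTC, -1.61 to 4.58, -0.012 to 0.081, -2.89 to 0.40 and -3.61 to 1.67 for the 5′ end, 3′ end, CCA end and other part of both anticodons. For CTC they ranged over -2.56 to 0.69 for CCA ends and -1.41 to 1.86 for the other part. For TTC they ranged over -2.86 to 4.39 for 5′ ends, -0.055 to 0.055 for 3′ ends and -1.38 to 3.60 for the other part. In curcumin-treated against young mice they ranged over -0.11 to 0.0095 for clean reads, -0.036 to 0.10 and -3.37 to 1.26 for 3′ ends and other part of both, -0.023 to 0.10 and -0.32 to 2.19 for 3′ ends and other part of CTC, and -0.067 to 0.091 for 3′ ends of TTC. Fits that leave 2 libraries in a group pool the spread over groups. Depth limits the 3′ ends, at 12.6 to 139 reads.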
